A study of Mus musculus with 5 samples.

Results

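The integrins and laminins described here are 35 genes, chosen by name: every gene of the deposited count table whose symbol was on a list of 25 integrin receptor subunits and 10 laminin chains. All 35 were found among the 54532 genes of the table, and 31 of them passed the filter on low counts that left 15920 genes for testing. Of the 35, 20 reached 10 CPM (reads scaled to a common library size) in at least 1 library. The other 15 were measured at lower levels and are given by their range or counts.

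The study sequenced poly(A) RNA of adipose stem cells sorted from the subcutaneous (SAT) and visceral (VAT) fat of 30 wild-type mice aged 12 to 14 weeks, all on a chow diet. Cells carrying CD31 or CD45, the markers of endothelial and immune cells, had been gated out, and the others were sorted on CD26 (encoded by Dpp4) and CD142 (encoded by F3). There are 5 libraries: SAT library 2, titled CD26-CD142+; SAT library 1, titled CD26+CD142-; 1 VAT CD26+CD142+ library; and VAT CD26-CD142+ libraries 1 and 2. For both SAT libraries the title and the library name give opposite gates: SAT library 2 is named for CD26 and SAT library 1 for CD142. Dpp4 stood at 1007 CPM in SAT library 2 and 6.58 CPM in SAT library 1, and F3 at 5.32 and 618 CPM in the same order, which goes with the names and against the titles. Nothing in the labels tells if each library had its own pool of mice, and p-values here measure only the spread between these libraries, which may be technical.

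Integrins are receptors built from 1 alpha and 1 beta subunit that anchor a cell to its matrix and signal from it; the alpha subunit largely sets which ligand is bound. Laminins are cross-shaped trimers of an alpha, a beta and a gamma chain that form the sheet of the basement membrane. In fat, a basement membrane wraps each adipocyte and each vessel, and adipose progenitors lie in and make collagen-rich interstitial matrix as well as laminin chains.

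The promoters of 3 genes that the results turn on are shown: Itgb7, which stood apart in 1 library, and Itga2 and Itga11, collagen receptor subunits whose levels ran in the same direction between the sorted libraries of both depots. Each line gives the 250 bases before the RefSeq start on the gene's own strand, in build GRCm38.p6, with matches to an ETS core (GGAAG) or an E-box (CANNTG) on either strand in capitals.
Itgb7, minus strand of chr15:102231936-102232185: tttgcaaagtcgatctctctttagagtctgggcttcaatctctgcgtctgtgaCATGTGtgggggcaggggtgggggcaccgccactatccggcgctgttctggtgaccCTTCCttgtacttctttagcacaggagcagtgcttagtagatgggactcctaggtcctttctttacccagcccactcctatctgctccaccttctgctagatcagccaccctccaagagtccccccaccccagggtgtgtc
Itga2, minus strand of chr13:114932101-114932350: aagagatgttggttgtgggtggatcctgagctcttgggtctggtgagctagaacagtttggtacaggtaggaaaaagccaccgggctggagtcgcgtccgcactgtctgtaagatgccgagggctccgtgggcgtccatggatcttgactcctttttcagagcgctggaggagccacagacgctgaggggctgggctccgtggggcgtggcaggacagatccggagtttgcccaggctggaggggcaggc
Itga11, plus strand of chr9:62677605-62677854: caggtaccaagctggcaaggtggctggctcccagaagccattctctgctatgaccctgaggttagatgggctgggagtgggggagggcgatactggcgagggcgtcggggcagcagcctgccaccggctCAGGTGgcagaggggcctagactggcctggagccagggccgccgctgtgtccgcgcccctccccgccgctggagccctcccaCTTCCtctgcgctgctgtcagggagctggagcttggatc
The Itgb7 sequence holds 1 ETS core that begins 141 bases before the start and 1 E-box at 197 bases. That of Itga11 holds 1 ETS core at 39 bases and 1 E-box at 121 bases. The Itga2 sequence holds neither. Among 32851 promoters of the same length, 64.1% hold an ETS core and 66.2% an E-box, so that either match is common. All motifs were searched on both strands, and matches to different motifs could overlap. None of the 3 sequences holds a TATA box (TATAAA, in 12.4% of promoters), a GC box (GGGCGG, 32.7%), an AP-1 site (TGANTCA, 6.75%), a TEAD site (CATTCC, 12.6%) or a RUNX site (TGTGGT, 14%). RefSeq entries were found for 23 of the 35 members. The RefSeq start lies 9 bases from the deposited one for Itgb7, 0 bases for Itga2 and 29 bases for Itga11.

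Total counts lay between 21706345 and 25357403 per library, and the 35 genes together took 0.36% to 1.15% of them. In the 3 libraries numbered 2, between 0.554% and 0.633% of reads fell on mitochondrial genes; in those numbered 1 it was 2.83% (SAT) and 4.33% (VAT). Long genes also ran lower in the libraries numbered 1. Between the VAT CD26-CD142+ libraries, which share a gate, genes of at least 5000 bases had a median log2 ratio of 0.34 for library 2 over library 1, and shorter genes -0.26. Of the 35 members, 28 are that long, and 7 of the 15 members with at least 10 CPM were at least 2-fold higher in library 2 than in library 1, with 0 lower, against 6.68% and 3% of all such genes. For SAT library 2 over SAT library 1 the medians were 0.37 and -0.27, so the ratios between the SAT libraries move with gene length as well. In bulk RNA, fewer cells of a type and less RNA per cell cannot be told apart.

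Levels per length, in TPM (scaled so that each library has the same sum), put the same few subunits on top in all 5 libraries. Among the 17 alpha subunits, Itga5, the fibronectin receptor subunit, ranked first in each library with 42.9% to 77.8% of the family's TPM. Itga11, a receptor subunit for fibrillar collagen known from fibroblasts, held 36% in SAT library 2 and 26.4% in the VAT CD26+CD142+ library, against 9.45% to 12.7% in the other 3. Among the 8 beta subunits, Itgb1, the shared partner of most alpha subunits, ranked first with 42.3% to 63.7%, and Itgb5, a partner of Itgav, second with 31.1% to 40.7%. The alpha subunits dedicated to laminin were low: Itga3 and Itga6 did not pass 2.4 TPM in any library, and Itga7, the main laminin receptor subunit of muscle, reached 7.5 TPM in SAT library 1 and at most 1.19 TPM elsewhere. Dag1, the dystroglycan gene and a laminin receptor that is no integrin, had between 181 and 363 CPM.

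**Figure D1:**
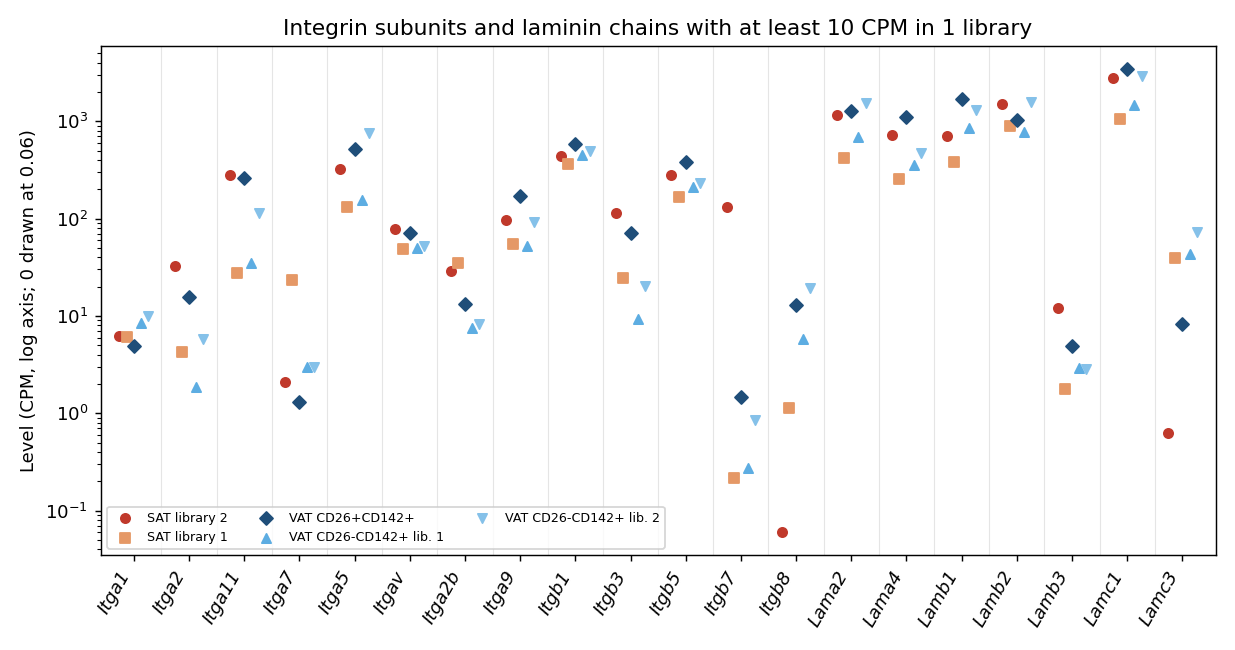
Level in CPM (vertical, log axis) of the 20 members with at least 10 CPM in 1 library, with 1 point per library; a level of 0 is drawn at 0.06. Itgb7 lies at 131 CPM in SAT library 2 and below 2 CPM in the other 4 libraries, and Lamc3 is lowest in SAT library 2 and next lowest in the VAT CD26+CD142+ library.

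The laminin chains present per length were those of laminins with an alpha2 or alpha4 chain. Lama2, the alpha chain of muscle and peripheral nerve basement membranes, and Lama4, the alpha chain of vessels and adipocytes, together made up nearly all alpha chain TPM, Lama2 with 45.5% to 70.1% and Lama4 with 29.4% to 54.2%. Lama4 ranked first only in the VAT CD26+CD142+ library, and Lama2 in the other 4. Lamb2 held 77.1% of beta chain TPM in SAT library 2 and 79% in SAT library 1, against 49.7%, 59.2% and 66.2% in the VAT CD26+CD142+ library and VAT CD26-CD142+ libraries 1 and 2. Lamb1 held most of the rest, and its share was smaller in both SAT libraries (22.3% and 20.8%) than in each VAT library (50.1%, 40.6% and 33.7%). Lamc1, the gamma chain of most laminins, made up at least 95.1% of gamma chain TPM.

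**Figure D2:**
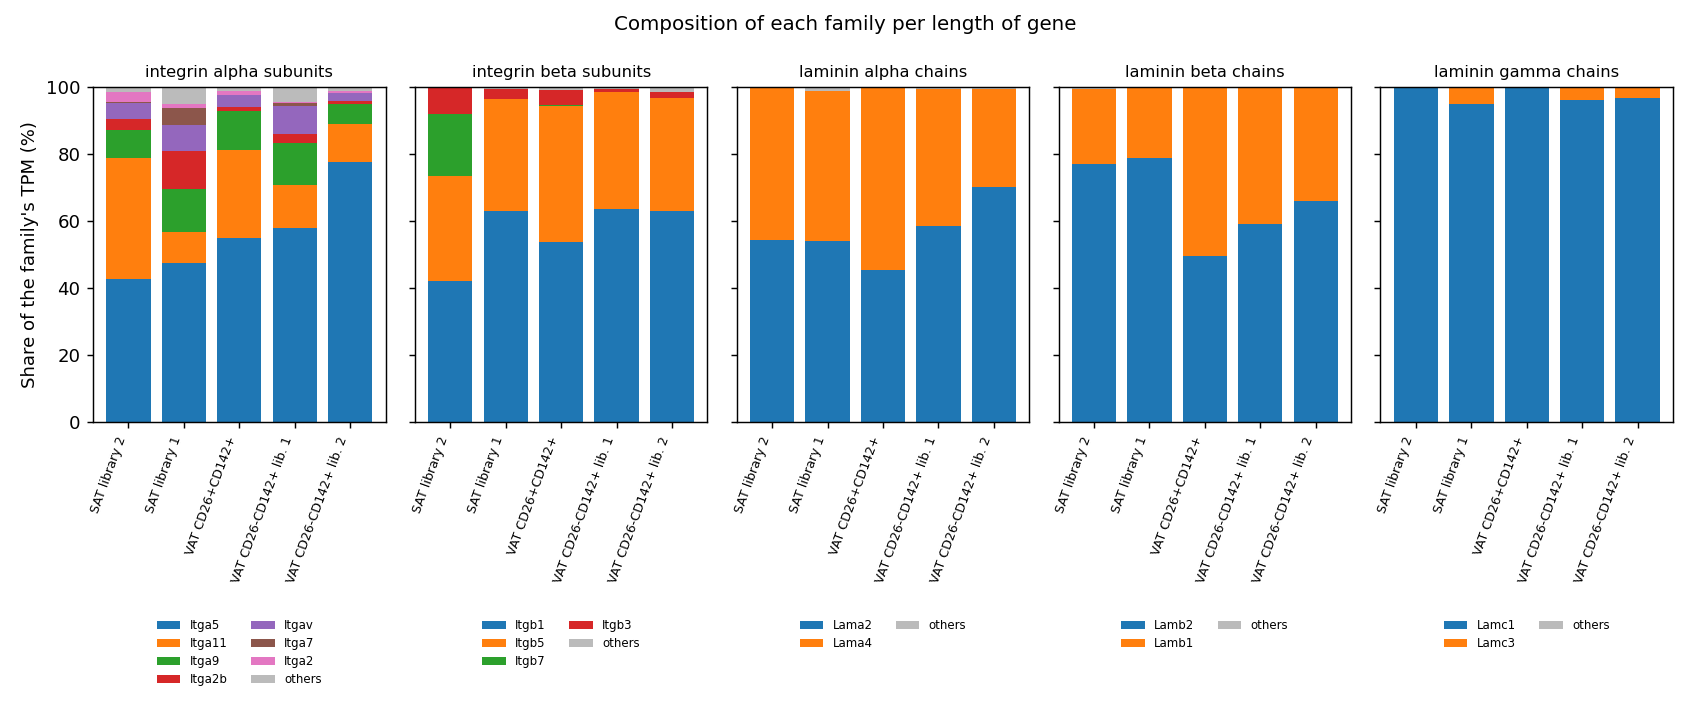
Share (%) of each family's TPM taken by its members in each library, 1 bar per library and 1 panel per family; members under 2% everywhere are drawn as others. Itgb7 takes 18.6% of beta subunit TPM in SAT library 2 and at most 0.203% elsewhere, and Lamb1 takes less of beta chain TPM in the SAT libraries than in the VAT libraries.

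Within visceral fat, the VAT CD26+CD142+ library was set against both VAT CD26-CD142+ libraries, which by label differ from it in CD26. Dpp4 stood at 417 CPM in the VAT CD26+CD142+ library and at 5.13 and 6.58 CPM in VAT CD26-CD142+ libraries 1 and 2. F3 differed as well, at 99.1 CPM against 378.6 and 241.5 CPM in the same order. In edgeR's quasi-likelihood test, adjusted over all 15920 genes, 3 of 31 members passed 0.05, against 1.6% of all tested genes; 1 was higher (0.898% of all) and 2 were lower (0.697% of all). Itgb3 (ENSMUSG00000020689, plus strand of chr11:104608000-104670476 in mm10), the beta3 subunit that pairs with Itgav to bind vitronectin and fibronectin, was measured at 71.4 CPM in the VAT CD26+CD142+ library and at 9.31 and 20.2 CPM in the VAT CD26-CD142+ libraries. Its level was 4.84-fold higher, a log2 change of 2.28 (SE 0.52, adjusted p = 0.0382 in edgeR). Against library 2 alone, which shares the number 2, it was 3.54-fold higher (95% counting interval 3.19 to 3.93).

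Lamc3 (ENSMUSG00000026840, plus strand of chr2:31887291-31946539), a gamma chain of minor laminins, ran the other way, at 8.24 CPM in the VAT CD26+CD142+ library and 42.9 and 73.5 CPM in the VAT CD26-CD142+ libraries. It fell by 2.82 on the log2 scale (SE 0.59, adjusted p = 0.0210 in edgeR), and against library 2 alone it was 8.91-fold lower (7.69 to 10.4). Lama1, the alpha chain of the embryonic basement membrane, had 1 read in the VAT CD26+CD142+ library and 64 and 97 reads in the VAT CD26-CD142+ libraries. Its level was thus 86.7-fold lower (counting interval 15.3 to 3440). The call on Lama1 (adjusted p = 0.0443 in edgeR) rests on that single read, and in DESeq2 its adjusted p was 0.0508. Both chains stood below both VAT CD26-CD142+ libraries, in which the summed markers of mural cells of vessels were also higher, at 199 and 216 CPM against 112 CPM. Des alone gave 137.7 and 119.7 CPM against 96.5 CPM of these sums. Myh11 gave 37.9 and 62.6 CPM against 5.98 CPM. Of 7 tested mural markers, 5 lay below both of these libraries (33.3% of all tested genes do). In edgeR 2 of the 7 were called lower, against 0.697% of all tested genes. Rgs5 alone lay above both (31.3% of all do), at 2.60 CPM against 2.06 and 1.38 CPM. The part of the mural markers in the result was not tested.

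In all, 10 members had an unadjusted p under 0.05 in edgeR, a rate of 8.38% over all genes. Of these, 7 did not pass the adjustment, and 6 of those 7 were higher in the VAT CD26+CD142+ library. Itga2, a collagen receptor subunit, had 15.8 CPM in the VAT CD26+CD142+ library and 1.88 and 5.76 CPM in the VAT CD26-CD142+ libraries (log2 change 2.04, SE 0.61, adjusted p = 0.178 in edgeR). Itga11 had 260 CPM there and 35.2 and 114 CPM in the VAT CD26-CD142+ libraries (log2 change 1.81, adjusted p = 0.311 in edgeR). Lama4 had 1118 CPM and then 359 and 474 CPM (log2 change 1.42, adjusted p = 0.297 in edgeR). The VAT CD26+CD142+ library was above both others in each of these 3 genes. Itga9, a receptor subunit for tenascin and other matrix proteins, had 172 CPM, against 52.6 and 92.8 CPM, and 96.5 and 55.0 CPM in SAT libraries 2 and 1. Itga3 and Itgb7 lay at or under 3.75 CPM in all 3 libraries. Itga8, which binds nephronectin, was the one that ran lower, with 10 reads in the VAT CD26+CD142+ library and 108 and 70 reads in the VAT CD26-CD142+ libraries.

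Over the 31 tested members the median log2 change was 0.63, against -0.03 over all tested genes, and 22 were positive. In 18 members the VAT CD26+CD142+ library lay above both other libraries and in 7 below both, where 31.3% and 33.3% of all tested genes do. Ratios to the 2 VAT CD26-CD142+ libraries differ in their relation to gene length: against library 1 the median log2 ratio was 0.32 for genes of at least 5000 bases and -0.29 for shorter ones, while against library 2 it was -0.02 and -0.01. With that trend removed, 3 members were called, and Itgb3 and Lamc3 had adjusted p = 0.0142 and 0.00471 in edgeR. In Itga5, Lama2 and Lamb2 the VAT CD26-CD142+ libraries lay on both sides of the VAT CD26+CD142+ library: Itga5 had 520 CPM there, against 154 and 763 CPM in VAT CD26-CD142+ libraries 1 and 2. Lama2 had 1271 CPM, against 695 and 1533 CPM, and Lamb2 had 1033 CPM, against 772 and 1569 CPM. Lamc1 was above both at 3440 CPM, against 1468 and 2946 CPM, as was Lamb3 at 4.91 CPM, against 2.89 and 2.84 CPM; neither reached an unadjusted p under 0.05 in edgeR.

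In subcutaneous fat, SAT library 2 was set against SAT library 1, with 1 library a side and hence no test; the fold changes are described with their counting intervals, which do not cover the spread between samples. Of 18 members with at least 10 CPM in either library, 9 were at least 2-fold higher in SAT library 2 and 2 at least 2-fold lower, where 11.2% and 11.3% of all 9689 such genes were. The median log2 ratio of the 18 was 1.08, against 0.03 over all those genes. With the trend on gene length removed, 8 of these 11 stayed past 2-fold; Lama2, Lama4 and Lamc1 did not, at 0.79, 0.92 and 0.996 on the log2 scale, where 2-fold is 1.

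Itgb7 (ENSMUSG00000001281, minus strand of chr15:102215995-102231944), the beta7 subunit known from lymphocytes that home to the gut, had the widest gap. It had 2910 reads in SAT library 2 and 5 reads in SAT library 1, that is 131 and 0.216 CPM, a ratio of 607 (counting interval 260 to 1870). The 3 VAT libraries held 36, 6 and 20 reads, so that only SAT library 2 was high. Its alpha partners were near the floor there: Itga4 had 6 reads and Itgae 4 reads in SAT library 2. The summed lymphocyte markers came to 0.496 CPM in SAT library 2, the lowest of the 5 libraries. Ptprc, the CD45 gene used to gate out immune cells, stood at 0.632 CPM in SAT library 2 and 0.260 CPM in SAT library 1. It had 0.989, 0.183 and 0.387 CPM in the VAT CD26+CD142+ library and VAT CD26-CD142+ libraries 1 and 2. The part of immune cells in the Itgb7 level was not tested. No other annotated gene shares exon bases with Itgb7, which at 2770 bases is not among the long genes. Of the neighbouring genes within 50000 bases, Rarg had 178 CPM in SAT library 2 and 119 CPM in SAT library 1, against 67.4 to 85.9 CPM in VAT; Zfp740 lay between 70.7 and 78.7 CPM in all 5 libraries.

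Of the 4 collagen receptor subunits, 2 were also higher in SAT library 2. Itga11 had 281 CPM in SAT library 2 and 27.5 CPM in SAT library 1, a ratio of 10.2 (9.41 to 11.1). Itga2 had 32.6 CPM in SAT library 2 and 4.28 CPM in SAT library 1, a ratio of 7.61 (6.16 to 9.49). The other collagen-binding subunits, Itga1 and Itga10, lay between 3.14 and 10.1 CPM in all 5 libraries. Itgb3 had 116 CPM in SAT library 2 and 24.4 CPM in SAT library 1, a ratio of 4.74 (4.33 to 5.20). Itga11, Itga2 and Itgb3 were thus at least 2-fold higher in the library with high Dpp4 in SAT. They were also above both VAT CD26-CD142+ libraries in the VAT library with high Dpp4. Both libraries with high Dpp4 are numbered 2. Between the VAT CD26-CD142+ libraries, which share a gate, the log2 ratios of library 2 over library 1 were 1.66, 1.23 and 1.04 for these genes. Gate and library number were not separated here.

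Lamb3, a chain of epithelial laminin, had 12.1 CPM in SAT library 2 and 1.77 CPM in SAT library 1. Itga5 had 322 and 133 CPM in SAT libraries 2 and 1. Lama2 had 1164 and 416 CPM, Lama4 716 and 254 CPM, and Lamc1 2780 and 1051 CPM in the same order. Lamb2 had 1505 and 887 CPM and stayed within 2-fold. The first 5 were the remaining members that stood at least 2-fold higher in SAT library 2. For library 2 over library 1 of the VAT CD26-CD142+ gate, Itga5, Lama2 and Lamc1 had log2 ratios of 2.30, 1.14 and 1.00. Lama4 had 0.40 and Lamb3 -0.02.

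Lamc3 and Itga7 were the 2 that ran lower. Lamc3 had 14 reads in SAT library 2 and 918 in SAT library 1, or 0.632 and 39.7 CPM, 62.9-fold lower (37.3 to 116). Itga7 had 2.08 CPM in SAT library 2 and 23.4 CPM in SAT library 1, 11.3-fold lower (8.34 to 15.6), and no VAT library passed 2.98 CPM. The 9 epithelial markers summed to 8.98 CPM in SAT library 2 and 83.5 CPM in SAT library 1, with Krt17 at 0 in all 5 libraries. The 10 mesothelial markers summed to 4.6 CPM in SAT library 2 and 175 CPM in SAT library 1, with Msln at 0 in both. Of these sums, 4.19 and 172 CPM came from 4 keratins that epithelial cells also express (Krt7, Krt8, Krt18 and Krt19), and 0.406 and 2.16 CPM from the other 6 markers. The mural marker sum was 49.8 CPM in SAT library 2 and 143 CPM in SAT library 1, of which Abcc9 gave 12.0 and 98.2 CPM. Des ran the other way at 14.4 and 3.20 CPM, as did Rgs5 at 4.06 and 2.34 CPM. Higd1b had 7 reads in SAT library 2 and 1 read in SAT library 1, and the other mural markers were lower in SAT library 2. The part of the epithelial, mesothelial and mural markers in the ratios was not tested. Itgb8, a subunit that binds latent TGF-beta with Itgav, had 0 reads in SAT library 2 and 26 in SAT library 1, at least 8.31-fold lower against a floor of 3 reads.

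**Figure D3:**
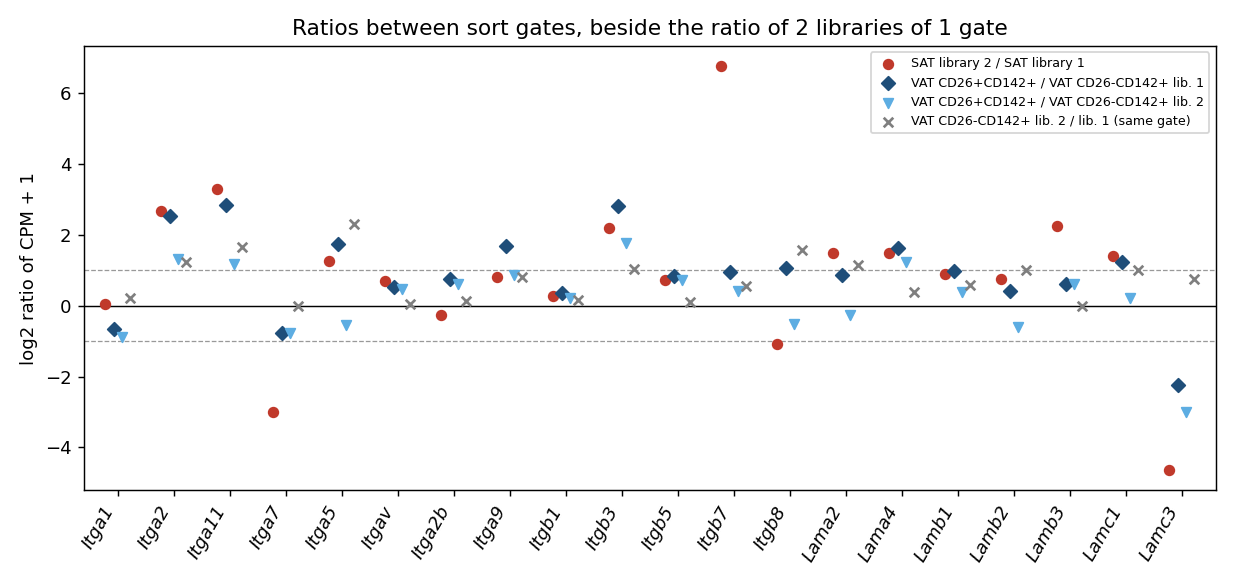
log2 ratio of CPM + 1 (vertical) for the 20 members with at least 10 CPM in 1 library: SAT library 2 over SAT library 1, the VAT CD26+CD142+ library over each VAT CD26-CD142+ library, and, as crosses, VAT CD26-CD142+ library 2 over library 1, which share a gate. Itga2, Itga11 and Itgb3 lie above 1 (2-fold) in all 3 gate ratios and in the cross, Lama4 in all 3 gate ratios with its cross at 0.40, and Lamc3 lies below -1 in all 3.

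Whether the gap between the SAT libraries differed from that between the VAT gates was tested in edgeR as 1 contrast. The SAT libraries differ in both Dpp4 and F3, while both sides of the VAT gap were sorted CD142+. Depot and sorted population therefore cannot be told apart in this contrast. Of 31 members, 1 passed the adjustment, Itgb7, against 0.251% of all tested genes (0.0377% in the positive direction). Its log2 difference was 7.84 (SE 1.11, adjusted p = 0.00773 in edgeR), with the lone SAT libraries assumed to vary like the pair of VAT libraries. Without VAT CD26-CD142+ library 1 or 2 the value was 8.42 or 6.80, with no test possible. Together with Itgb7, 5 members had an unadjusted p under 0.05, a rate of 4.47% over all genes. The other 4, Itga3, Itga7, Itgb8 and Lamc3, were negative, with adjusted p = 0.211 for Lamc3 (log2 difference -3.15) and 0.288 for Itgb8. Itgb3, Itga2 and Itga11 were not among them.

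The CD26 gate was then tested over both depots with depot as a term, taking the SAT gates by library name. In edgeR 0 of 31 members passed the adjustment, against 0.597% of all tested genes, while 12 had an unadjusted p under 0.05, a rate of 16% over all genes; DESeq2 called 9 of 31, against 8.74% of all genes it tested. The libraries carrying CD26 by name are both numbered 2, so gate and number overlap in this contrast. Nor is it a contrast of CD26 alone. F3 stood at 5.32 CPM in SAT library 2 and 618.5 CPM in SAT library 1, while all VAT libraries were sorted CD142+. Itgb3 had 116 CPM in SAT library 2 and 71.4 CPM in the VAT CD26+CD142+ library, while the 3 libraries named for CD142 had 24.4, 9.31 and 20.2 CPM (log2 change 2.26, SE 0.37, adjusted p = 0.089 in edgeR). Lama4 stood at 1.45 on the log2 scale (SE 0.27, adjusted p = 0.108 in edgeR) and Itga11 at 2.49 (SE 0.64, adjusted p = 0.179 in edgeR). Lamc3 stood at -3.85 (SE 0.81, adjusted p = 0.129 in edgeR) and Itga8 at -2.86 (SE 0.58, adjusted p = 0.124 in edgeR). In all 5 genes the libraries named for CD26 did not overlap with those named for CD142. Over the members, 9 lay above and 5 below in this way, where 16.8% and 17.3% of all tested genes do.

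Leaving out a library mostly turned this into another comparison. Without either SAT library the depot term takes up the other one, and what is left is the VAT gate contrast, with 3 members called in each case as above. Without the VAT CD26+CD142+ library only the SAT pair bears on the gate, 1 library a side, with the spread taken from the VAT CD26-CD142+ pair; the count there was 3 and is no test of the gate over both depots. Without VAT CD26-CD142+ library 2 the count was 6, but both libraries named for CD26 are then numbered 2 and both named for CD142 numbered 1, so that gate and number cannot be told apart. Without VAT CD26-CD142+ library 1 it was 0. The share of all genes called in these fits was not set beside the counts. With the trend on gene length removed, Itgb3 alone was called (log2 change 2.11, adjusted p = 0.0398 in edgeR). Over the members the median log2 change was 0.44, against -0.01 over all tested genes. Taken by title, the gate gave 0 of 31 members in edgeR, against 0% of all genes, and 0 in DESeq2, against 0.109%. In edgeR 2 members stood at an unadjusted p under 0.05, Lama1 and Itga3, and 0.879% of all genes.

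Between depots, the 2 SAT libraries were compared with the 3 VAT libraries over all gates. In edgeR 0 of 31 members passed the adjustment, against 0.0503% of all tested genes, and 7 had an unadjusted p under 0.05, a rate of 6.76% over all genes; DESeq2 called 3, Itga2b, Itgb8 and Lama1, against 2.98% of all genes it tested. Itga2b, the alphaIIb subunit known from platelets, had 28.7 and 34.9 CPM in SAT libraries 2 and 1, against 13.2, 7.52 and 8.34 CPM in the VAT CD26+CD142+ library and VAT CD26-CD142+ libraries 1 and 2. Both SAT libraries were above all 3 VAT libraries, a log2 change of 1.71 (SE 0.32, adjusted p = 0.310 in edgeR). Within libraries numbered 1, Itga2b in SAT was 4.64 times its VAT level (3.92 to 5.53), and within those numbered 2 it was 2.65 times (2.36 to 2.98). The 8 platelet markers summed to between 0.476 and 2.24 CPM over the 5 libraries, with 1.67 and 0.476 CPM in SAT libraries 2 and 1.

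Itgb8 and Lama1 had lower values in SAT. Itgb8 had 0 and 1.13 CPM in SAT libraries 2 and 1, against 13.1, 5.78 and 19.2 CPM in the VAT CD26+CD142+ library and VAT CD26-CD142+ libraries 1 and 2 (log2 change -4.47, SE 1.48, adjusted p = 0.586 in edgeR). Lama1 had 0 reads in both SAT libraries and 162 in VAT, at least 35.3-fold lower against a floor of 3 reads over the group; all but 1 of the VAT reads came from the CD26-CD142+ libraries. Lamb1 had 711 and 381 CPM in SAT libraries 2 and 1, against 1698, 863 and 1304 CPM in VAT, again without overlap (log2 change -1.24, SE 0.48, adjusted p = 0.720 in edgeR). Within libraries numbered 1, Lamb1 in SAT was 0.442 of its VAT level (0.431 to 0.453), and within those numbered 2 it was 0.473 (0.464 to 0.481).

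The remaining members at an unadjusted p under 0.05 were Itga4, Itga6 and Itgb7. Itgb7 rested on SAT library 2: its log2 change was 6.22 (SE 2.10, adjusted p = 0.601 in edgeR), and -2.0 without that library. Itga4 and Itga6 lay under 4 CPM in all libraries. Over the members the median log2 change was -0.34, against 0.01 over all tested genes; 3 lay above VAT in both SAT libraries and 6 below, where 9.64% and 10.2% of all tested genes do. Itgav, which pairs with several beta subunits, stayed between 48.3 and 78.8 CPM, Itgb1 between 363 and 580 CPM and Itgb5 between 169 and 382 CPM over all 5 libraries.

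**Figure D4:**
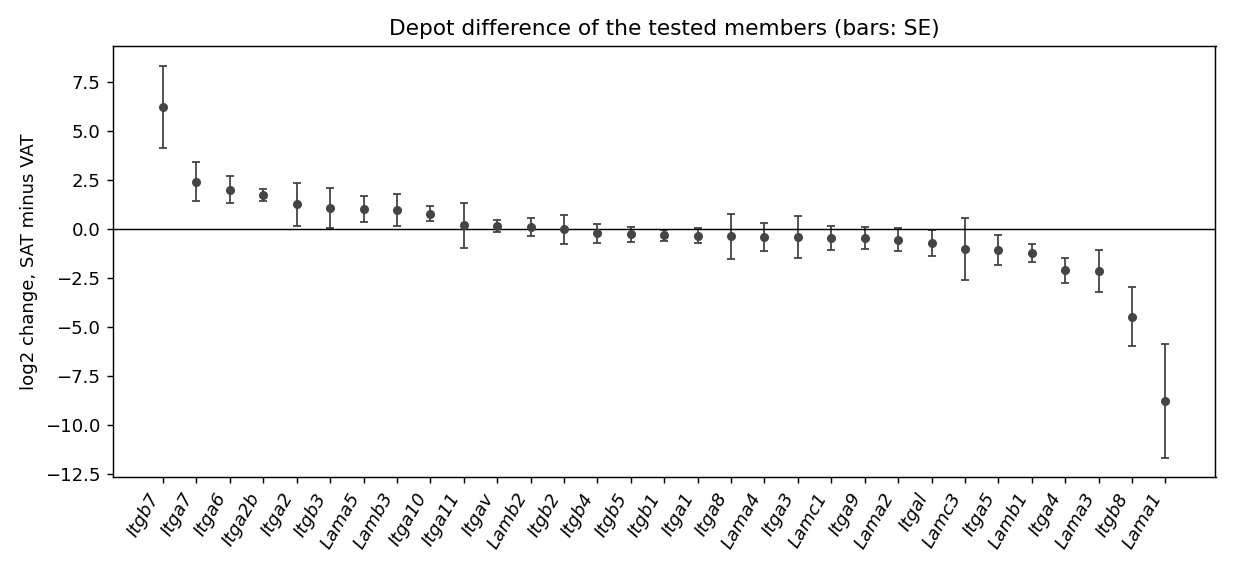
log2 change in SAT relative to VAT (vertical) of the 31 tested members, ordered by size; points are edgeR estimates and bars their SE. Itga2b has a small error at 1.71, while Itgb7 at 6.22 and Lama1 at -8.77 rest on 1 library or on few reads, and 0 of the 31 passed the adjusted threshold.

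The other members were scarce. The leukocyte subunits Itgae, Itgam and Itgax had at most 8 reads in any library, and Itgal, a subunit of lymphocyte LFA-1, between 15 and 42. Itgb2, the beta subunit of leukocyte integrins, lay between 8 and 31 reads. Itgb6, an epithelial subunit, had 35 reads in SAT library 2, a single read in SAT library 1 and 0 reads in VAT. Itgb4, the hemidesmosome subunit, had 36 to 58 reads, Lama3 1 to 39 reads, and Lama5, an alpha chain of epithelial and vessel laminins, 20 to 146 reads with the most in SAT library 1.

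Other genes of matrix adhesion were taken from lists of the pathway, which overlap in part. Of 22 tested integrin ligands other than laminins, 1 was higher and 1 lower in the VAT CD26+CD142+ library than in the VAT CD26-CD142+ libraries, where 0.898% and 0.697% of all tested genes were. Fbn1, the fibrillin of microfibrils, had 4180 CPM, against 533 and 889 CPM (log2 change 2.56, SE 0.55, adjusted p = 0.0266 in edgeR). Vtn, the gene of vitronectin, had 19.9 CPM, against 270 and 115 CPM (log2 change -3.28, SE 0.65, adjusted p = 0.0198 in edgeR). Fn1, the fibronectin gene, did not pass in edgeR (adjusted p = 0.229) at 13020 CPM, against 1348 and 4569 CPM; it had 13780 CPM in SAT library 2 and 1558 CPM in SAT library 1.

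Of 23 tested basement membrane partners, 1 was higher and 2 were lower in that comparison, with the same 0.898% and 0.697% over all genes. Fras1, a gene of a basement membrane adhesion complex, rose to 11.3 CPM in the VAT CD26+CD142+ sample, where both VAT CD26-CD142+ libraries had 0.458 and 1.59 CPM (log2 change 3.45, adjusted p = 0.0310 in edgeR). Smoc1 fell to 1.03 CPM there, against 8.80 and 11.5 CPM (adjusted p = 0.0401 in edgeR). Frem1, also of the Fras1 complex, had 0 reads in the VAT CD26+CD142+ library and 1.93 and 1.25 CPM in the VAT CD26-CD142+ libraries (adjusted p = 0.0184 in edgeR). Of 11 tested laminin receptors that are no integrins, 1 was lower, the syndecan gene Sdc1, with 6.64 CPM, against 45.7 and 37.6 CPM. Sdc1 was also the 1 gene of these lists called for CD26 by library name (log2 change -2.65, SE 0.25, adjusted p = 0.0381 in edgeR), with 8.71 CPM in SAT library 2 and 54.3 CPM in SAT library 1. Of 30 tested adaptors and signalling genes, 1 was higher, the focal adhesion kinase relative Ptk2b, with 58.9 CPM, against 7.98 and 17.9 CPM. Of 11 membrane partners of integrins, 0 were called in edgeR, with 1 at an unadjusted p under 0.05 (8.38% of all genes). Between depots, 0 genes of the 5 lists were called in edgeR, with 0 to 6 per list, of 11 to 30 tested, at an unadjusted p under 0.05 (6.76% of all genes); the largest changes among genes of 10 CPM were in Hmcn1 and Col4a6, at -5.25 (adjusted p = 0.221 in edgeR) and -4.82 (adjusted p = 0.146 in edgeR).

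Markers of mesenchymal progenitors summed to between 17600 and 37100 CPM over 10 genes, and no list of markers of other cells passed 325 CPM. The 10 endothelial markers summed to 325 CPM in SAT library 2 and 38.8 CPM in SAT library 1, and to 309, 79.2 and 77.1 CPM in the VAT CD26+CD142+ library and VAT CD26-CD142+ libraries 1 and 2. Most of the high sums was Tek (290 and 286 CPM), while Pecam1, the CD31 gene, stayed between 2.32 and 7.26 CPM. The mesothelial sum came to 257 CPM for VAT CD26+CD142+ cells and to 2.48 and 17.4 CPM for VAT CD26-CD142+ cells, with 5 of 10 markers called higher in edgeR; the 4 keratins gave 45.6 CPM of the 257 and the other 6 markers 211 CPM. It thus moves with that comparison, and its part in the members' changes was not tested. Macrophage and leukocyte markers summed to 25.2 to 55.1 CPM, Schwann cell markers to 16.9 to 66.3 CPM and skeletal muscle markers to 5.64 to 10.2 CPM. In SAT library 1, where Itga7 was highest, the muscle marker sum was 6.79 CPM, and Myog and Pax7 had 0 reads in all 5 libraries. The Schwann marker sum was 56.9 CPM there and 66.3 CPM in SAT library 2, where Mbp gave 51.2 CPM. S100b had 25.9 CPM in SAT library 1 and 0.812 CPM in SAT library 2. Erbb3 and Mbp were higher in SAT library 2, and the other Schwann markers were lower there. The part of these markers in the Itga7 level was not tested.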

How the data were processed

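The authors deposited counts: 1 table of raw, unnormalized read counts per gene for the 5 libraries, with a gene length in another unit, bases. Per the submitters' processing notes, the tools listed are HISAT2 2.0.5, CASAVA and featureCounts 1.5.0-p3, and the build is mm10; the annotation release and strand setting are not given in the sources used here. The deposited start, end and exon length were identical to GENCODE release 21 for 35 of 35 members. Of these, 11 share exon bases with another gene, none of which passed 107 reads. Itgam shares 3450 of its 5024 bases with Gm49368, and Itga10 shares 1739 of its 5186 bases with Gm42957. The effect of shared bases on the members' counts was not tested.

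From the counts, edgeR 4.0.16 (R 4.3.3) was run with TMM scaling and a filter at a minimum count of 10, leaving 15920 genes, and quasi-likelihood F tests were adjusted by Benjamini-Hochberg over all of them at 0.05. CPM use TMM library sizes; TPM are counts per deposited length. The SE is the size of the log2 change over the root of F. Depot was tested with 3 residual degrees of freedom, the gates with depot as a term with 2, and contrasts of the 4 title groups with 1, which comes from the VAT CD26-CD142+ pair. DESeq2 1.42.0 was an alternative. The SAT libraries were compared with a pseudocount of 1 CPM. Intervals (95%) are exact Poisson or conditional and, like floors, cover counting error only. Named genes are all members, and from the pathway lists those called or else the largest changes. The fits were tested on simulated data. The members and lists were chosen with earlier results of these data known; the length correction was added after the data were seen.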

Additional observations from a re-analysis of the deposited data

Results flagged for a closer look

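Itgb7 differed between the depots in its gap between sorted libraries: the test of that difference itself passed in edgeR, with a log2 difference of 7.84 (SE 1.11, adjusted p = 0.00773). The gap was 2910 reads in SAT library 2 and 5 reads in SAT library 1, while VAT had 36 reads in the CD26+CD142+ library and 6 and 20 reads in the CD26-CD142+ libraries. Only 1 of the 5 libraries was high, and no second SAT library of the same gate was analysed here, so that library and gate cannot be told apart. The gaps also compare unlike gates: the SAT libraries differ in both Dpp4 and F3, while both sides of the VAT gap were sorted CD142+. Depot and sorted population thus cannot be told apart either.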

How the results depend on the processing

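Members called between depots stayed at 0 in edgeR under 2 other scalings, no filter, a CD26 term by name or by title, the length correction and leaving out each library; DESeq2 called 3. For the VAT gate, counts were 3 (other size factors), 4 (upper quartile), 5 (no filter), 2 (DESeq2), 2 (VAT alone) and 3 (length correction). Lama1 lost its call in DESeq2 and, with VAT alone, did not pass the filter and was not tested; Itgb3 and Lamc3 were called in both. For CD26 by library name, 0 became 5 with no filter, 9 in DESeq2, 1 with the length correction and 0 to 6 over libraries left out; by title, leaving out libraries gave 0 to 3. Of these, the fits without a SAT library are the VAT contrast and those without the VAT CD26+CD142+ library the SAT pair, the same by name and by title apart from the sign, so they do not bear on a gate over both depots. The difference between depots gave 2 members with upper-quartile scaling (with Itgb8) and 3 with no filter (with Itgb8 and Lamc3). The depot change of Itgb7 reversed to -2.0 without SAT library 2. SAT library 2 was the only one with a high level, at 2910 reads against 5 to 36 reads in the others. Why Itgb7 was high in that library was not tested. The SAT pair gave 11 members at each other scaling and pseudocount and 8 with the length correction. Beyond the shares given earlier for the main fits and DESeq2, no share over all genes was set beside these counts. The counts therefore tell only how the members' calls held, not how the members compare with other genes. Library numbers 1 and 2 occur in both depots, but the labels do not say that they pair libraries. Over 15920 genes, the log2 differences of SAT library 2 minus 1 and of VAT CD26-CD142+ library 2 minus 1 had r = 0.42, across genes, which are not independent. With the library number as a replicate block, 0 members were called for depot or for CD26 by name. Of the single-gene alternatives, 301 kept their call, 38 gained one, 1 lost one, 1 reversed and 5 moved by more than the spread. For Lama1 without the VAT CD26+CD142+ library no value could be given, as both SAT libraries hold 0 reads. Members under about 10 reads, such as Itgae, could not be tested at this depth. Itgb6, with 35 reads in SAT library 2 alone, did not pass the filter either.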
